A study of Mus musculus with 3 samples.

Results

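The genes described here are 43 interferon response genes, taken by symbol from the count tables of 3 single-cell libraries of aged mouse hippocampus. Of these, 42 had a row among the 31053 gene symbols of the tables, and Mx2 was not analysed here. They were followed through 5 cell classes, each set by detection of all 3 of its marker genes: endothelial cells (Cldn5, Flt1, Pecam1), astrocytes (Slc1a2, Aqp4, Gja1), microglia (Cx3cr1, P2ry12, C1qa), ependymal cells (Ccdc153, Tmem212, Foxj1) and pericytes (Vtn, Kcnj8, Abcc9). Levels are given as CPM, the UMIs (unique molecular identifiers, counts of captured RNA molecules) of a gene in the cells of a class and library, scaled to a total of 1000000 UMIs.

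Interferons are secreted proteins that cells release when they sense nucleic acid of a virus, or their own nucleic acid in the wrong place. Type I interferons bind the receptor pair Ifnar1 and Ifnar2, whose kinases Jak1 and Tyk2 start a signal that brings Stat2 and Irf9 into the complex ISGF3, which binds the interferon-stimulated response element (ISRE) in the promoters of many genes. Type II interferon acts through Ifngr1 and Ifngr2 on a different element, the GAS site. Single cells are known to differ widely in whether they make interferon and how strongly they answer it, so a class mean and the spread over its cells are separate measurements.

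All 3 libraries were of 1 kind and form a single group: wild-type C57BL/6 mice labelled as 2 years old, with no younger, treated or mutant group, so every comparison is between cells of the same libraries. The title of replicate 3 carries another age, and its age label is that of the others. Hippocampi were dissociated with papain at about 20 units per ml, myelin was removed with beads, and the 10x Genomics droplet method counted RNA from its poly(A) end. A total of 6 hippocampi are named for the study without saying which went into which library. The p-values therefore measure only the spread between libraries, of which some comparisons below hold 2 in place of 3. The estimate of that spread is shared between genes, so a gene's own disagreement between 2 libraries can count little in it.

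Replicates 1, 2 and 3 held 7241, 1062 and 6456 barcodes and 45716237, 7185668 and 40377042 UMIs, of which 6412, 954 and 5065 cells passed the filters. The libraries shared 3, 12 and 2 barcodes in pairs (replicates 1 and 2, 1 and 3, 2 and 3). The class rule gave 2254, 399 and 1624 endothelial cells, 1091, 70 and 649 astrocytes, 808, 92 and 756 microglia, 77, 8 and 165 ependymal cells, and 48, 17 and 42 pericytes, in replicates 1, 2 and 3. All 6 check markers of each class, none of them used by the rule, were found in at least 20% of its cells in every library, except 5 of 6 in the 8 ependymal cells of replicate 2. Hemoglobin Hbb transcripts were in 39.4%, 88.5% and 87.6% of cells. The erythrocyte list summed to 10358, 18223 and 17155 CPM in the endothelial class. It summed to 401, 966 and 1904 CPM in astrocytes and 85.8, 461 and 847 in microglia, so the endothelial sum is not a level common to the classes. The part of free RNA in the values below was not tested. No doublet caller was run, and the 329, 38 and 401 cells that met 2 or more rules were left out. That step removed most full-size ependymal cells, since 156 of 234, 18 of 26 and 291 of 466 cells with the ependymal markers also had the 3 astrocyte markers. Ependymal values are therefore given also for a wider rule, chosen after the data were seen, that keeps cells meeting the ependymal and astrocyte rules (224, 26 and 440 cells).

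The element that ISGF3 reads was looked for in the promoters of the genes, here the 300 bases from 250 before to 50 after a transcription start, from RefSeq on GRCm38.p6. Of the 42 genes, 33 had an entry. The ISRE core, searched as GAAANNGAAA or on the other strand TTTCNNTTTC, occurred in 16 of 33 (48.5%), and in 1079 of the 27025 genes with an entry (3.99%). The GAS letters TTCNNNGAA, which read the same on both strands, occurred in 8 of 33 (24.2%) against 2582 of 27025 (9.55%). Both motifs share the letters GAA but neither contains the other. A match describes these letters in this window and is not a measured binding site. Shown are the 250 bases before the start of 4 genes that the results below turn on, written 5′ to 3′ along the gene, with ISRE core matches in capitals. Isg15 (minus strand, chr4:156200819-156201068) has 3 overlapping matches that begin 78, 72 and 66 bases before the start; Ifit3 (plus strand, chr19:34583279-34583528) has 2, in the reverse reading; Cxcl10 (minus strand, chr5:92348890-92349139) has 1; Bst2 (minus strand, chr8:71537473-71537722) has 2 that overlap.
Isg15: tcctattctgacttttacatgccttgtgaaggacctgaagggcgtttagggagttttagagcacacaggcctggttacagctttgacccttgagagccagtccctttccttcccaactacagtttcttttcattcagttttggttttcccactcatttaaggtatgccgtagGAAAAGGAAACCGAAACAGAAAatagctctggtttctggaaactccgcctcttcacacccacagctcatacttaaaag
Ifit3: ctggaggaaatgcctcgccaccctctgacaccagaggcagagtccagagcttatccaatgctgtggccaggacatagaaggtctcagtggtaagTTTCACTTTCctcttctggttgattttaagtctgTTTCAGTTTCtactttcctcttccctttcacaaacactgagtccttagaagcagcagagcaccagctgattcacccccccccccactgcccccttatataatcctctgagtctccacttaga
Cxcl10: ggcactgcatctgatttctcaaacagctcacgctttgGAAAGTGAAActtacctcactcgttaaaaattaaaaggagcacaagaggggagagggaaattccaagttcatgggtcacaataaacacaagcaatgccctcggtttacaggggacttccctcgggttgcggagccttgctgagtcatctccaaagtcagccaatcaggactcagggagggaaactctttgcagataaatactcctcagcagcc
Bst2: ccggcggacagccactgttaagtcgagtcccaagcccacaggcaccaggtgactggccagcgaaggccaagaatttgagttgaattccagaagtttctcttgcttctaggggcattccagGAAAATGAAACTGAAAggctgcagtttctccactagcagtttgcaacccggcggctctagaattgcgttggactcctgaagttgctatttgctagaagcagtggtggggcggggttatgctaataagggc

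The genes were not spread evenly over the classes. Whether a level is an answer to interferon or the usual level of a class was not tested. Judged by mean CPM over the libraries that entered the fit, 18 of the 42 genes were highest in ependymal cells, 14 in endothelial cells, 6 in microglia, 3 in pericytes and 1 in astrocytes. The ependymal mean holds replicates 1 and 3 only, and replicate 3 carried that count: without replicate 3, 11 genes were highest in ependymal cells and 19 in endothelial cells, and without replicate 2 the numbers were 16 and 17. The same count was not made over all genes, so these numbers describe the 42 genes alone. Each class was then set against the average of the other 4 on the log scale. The test was edgeR's quasi-likelihood test on summed UMI counts, blocked by library, with p-values adjusted by Benjamini-Hochberg over 13819 genes (threshold 0.05). Mx1, an antiviral GTPase, missed the filter on low counts (1.83 CPM ± 2.04 (SD, n = 3) in astrocytes and 0.624 ± 0.0984 in endothelial cells), so 41 genes were tested. The 5 contrasts share their profiles: a gene high in 1 class is pushed down in the others. Scaling by the relative log expression method (RLE) in place of TMM moved the median of all genes by -0.26 in endothelial cells, 0.24 in ependymal cells, 0.10 in astrocytes, -0.15 in endothelial cells against microglia and -0.29 in the interaction described at the end, on the log2 scale. Smaller differences than these depend on that choice.

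**Figure D1:**
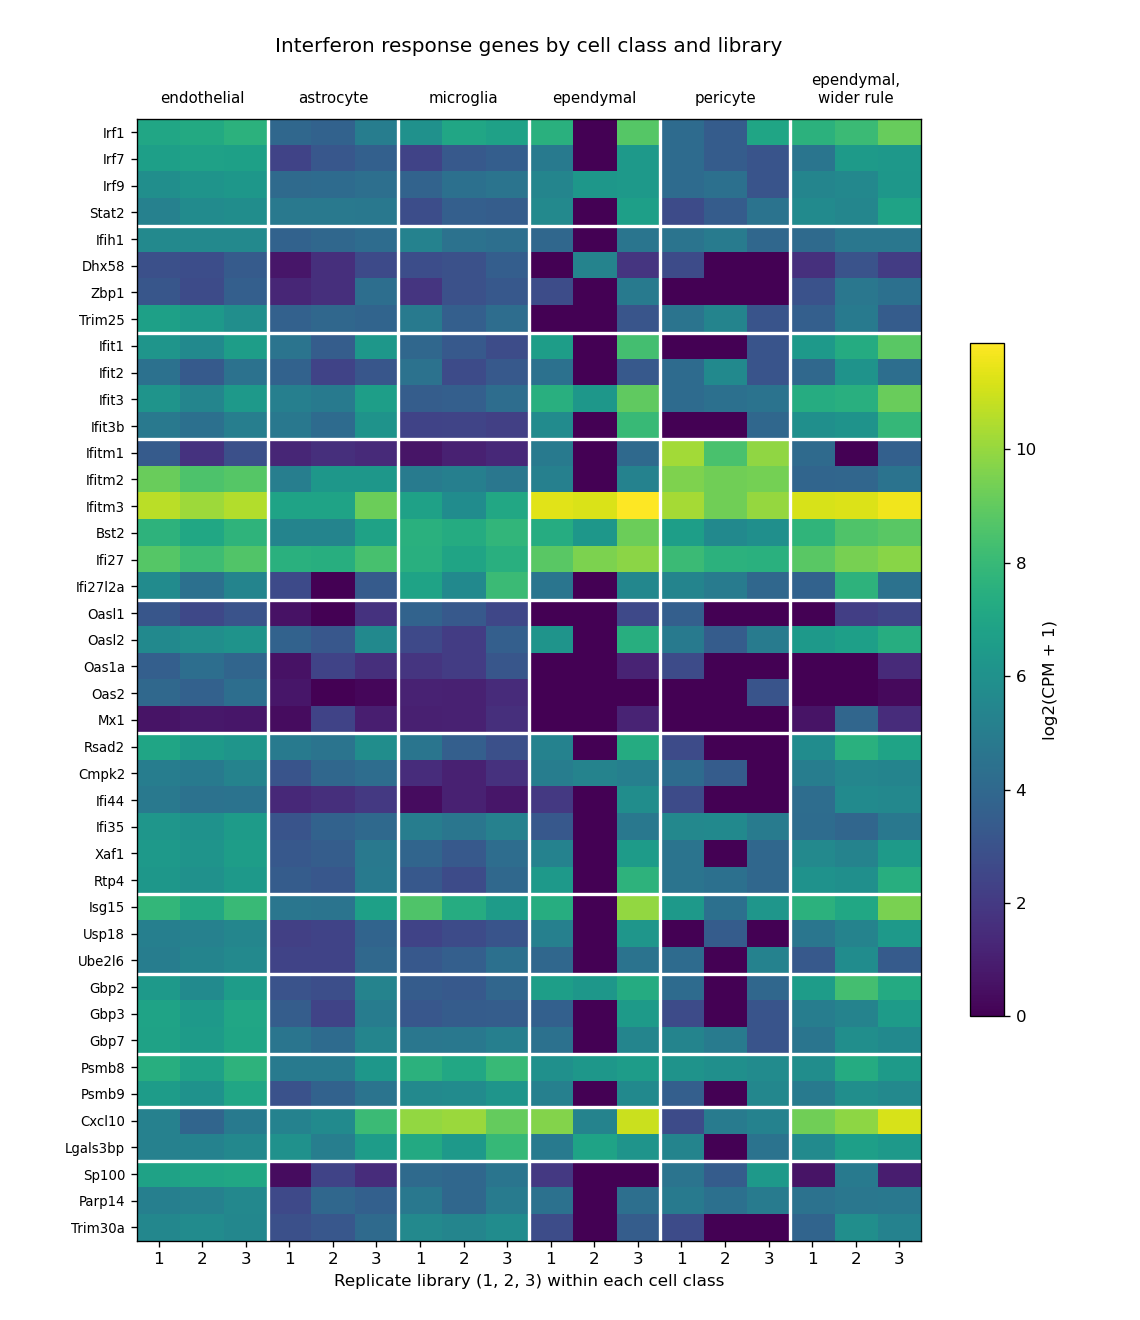
Level of each measured interferon response gene (rows, by role) in each class and library (columns), as log2 of CPM plus 1. Endothelial columns are filled across nearly all roles. The higher rows of the microglia columns include Cxcl10, Isg15, Bst2, Psmb8, Ifi27 and Lgals3bp. The ependymal columns of replicate 3 stand above those of replicate 1. The ependymal class of replicate 2 has 8 cells and many zeros, and the wider rule is shown as further columns.

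Endothelial cells had the most genes higher. Here 33 of 41 genes were higher than in the mean of the other classes and 2 were lower, beside 31.3% and 17.7% of all genes tested; the median of the 41 log2 differences was 1.78, and that of all genes 0.15. All 4 transcription factors were higher, as were all 6 other effectors (Rsad2, Cmpk2, Ifi44, Ifi35, Xaf1, Rtp4), the 3 guanylate-binding GTPases Gbp2, Gbp3 and Gbp7, which attack the membranes around intracellular pathogens, and both immunoproteasome subunits, Psmb8 and Psmb9.

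Irf7, the transcription factor that amplifies type I interferon production, stood at 103.5, 110.7 and 107.5 CPM in endothelial cells of replicates 1, 2 and 3. It stood at 4.2, 8.3 and 11.4 in astrocytes and 4.2, 9.0 and 10.8 in microglia. The endothelial values lie close together and far above both, and the log2 difference from the other classes was 3.14 ± 0.21 (SE, edgeR adjusted p = 1e-11). Sp100, a scaffold protein of PML nuclear bodies, was at 114.7, 126.5 and 134.6 CPM in endothelial cells. Microglia had 16.2, 14.6 and 23.7, and astrocytes 0.3, 4.2 and 1.9. Its endothelial log2 difference was 4.76 ± 0.25 (edgeR adjusted p = 1.3e-13), with no overlap between endothelial cells and any other class. Gbp3 (3.28 ± 0.28), Trim25 (2.76 ± 0.24), the ubiquitin ligase that activates RIG-I, and Ifitm2 (2.69 ± 0.19), which blocks entry of viruses at membranes, followed. Oas2, which makes the oligoadenylates that switch on RNase L, was at 15.1 CPM ± 3.38 (SD, n = 3) in endothelial cells and at most 2.47 CPM on average in every other class.

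For Isg15 and the IFIT genes the endothelial picture was mixed. Isg15, a ubiquitin-like protein that is attached to other proteins, was at 232.1, 142.0 and 263.1 CPM in endothelial cells and 385.0, 160.1 and 90.2 in microglia. Those ranges overlap, and the endothelial difference from the other classes, 0.88 ± 0.41, did not pass (edgeR adjusted p = 0.085). Of the IFIT proteins, which bind viral RNA and block its translation, Ifit1 (2.10 ± 0.43) and Ifit3 (0.83 ± 0.22) were called and Ifit2 (0.64) and Ifit3b (0.88) were not. Cxcl10, the chemokine that draws T cells through Cxcr3, was lower in endothelial cells by 2.84 ± 0.58 on the log2 scale, and Ifitm1 fell by 0.70 ± 0.23 below a mean that holds the pericytes' 840 CPM. The calls of Bst2, Ifi27 and Ifi27l2a were lost with RLE scaling and that of Ifit3 with DESeq2; without replicate 3 the Ifitm1 call was lost, which leaves 1 gene lower. Over all genes, 63.9% of endothelial calls were higher with TMM and 49.1% with RLE.

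Ependymal cells, the ciliated lining of the ventricles, had 21 of 41 genes higher and 5 lower, beside 22.4% and 17.1% of all genes. Their median log2 difference was 1.12 over the 41 genes and -0.12 over all genes. Replicates 1 and 3 entered this contrast, since replicate 2 had 8 cells. Cxcl10 (3.42) and Ifi44 (3.26) had the highest called differences, followed by Ifit3b (3.23 ± 0.36), Ifit1 (3.17 ± 0.47), Ifit3 (2.95 ± 0.24, edgeR adjusted p = 7.3e-10) and Usp18 (2.46 ± 0.40), the protease that removes Isg15 from proteins.

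Replicate 3 was the higher library for most of them. Ifit3 was at 180.3 and 508.4 CPM in replicates 1 and 3, against 69.1 and 82.6 in endothelial cells of the same libraries. Isg15 was at 165.7 CPM in replicate 1, below the endothelial 232.1, and at 999.8 in replicate 3. Ifitm3, which restricts influenza viruses at the endosome, was at 2579.1 and 3748.3 CPM, above every other class, with a log2 difference of 2.30 ± 0.30. Under the wider rule, with replicate 2 included, Ifit3 was at 162.9, 180.6 and 565.3 CPM, Isg15 at 195.0, 134.6 and 718.5 and Ifitm3 at 2287, 2451 and 3172 in replicates 1, 2 and 3, so the lead of replicate 3 was found by both rules. The 5 lower genes were Sp100, Trim25, Ifitm2, Ifi35 and Psmb8; Ifitm2 was lower by 2.33 ± 0.36 while its neighbour Ifitm3 was higher.

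Without replicate 3, 11 genes were higher in ependymal cells in place of 21, and the sign of Gbp3 and Ifi44 turned. Cells with at most 1 marker of another class gave 12 higher, and this contrast's share of higher calls over all genes was 56.6% with TMM and 69.5% with RLE. The astrocyte check markers summed to 2236 and 2310 CPM in the ependymal class of replicates 1 and 3, a level whose part in the result was not tested.

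In microglia, the resident macrophages of brain tissue, the genes were split. Here 16 of 41 were higher and 12 lower, beside 29.4% and 24.3% of all genes, with a median log2 difference of 0.09 (all genes -0.02). The higher genes included both secreted proteins. Cxcl10 was at 984.3, 1093.6 and 542.7 CPM in microglia and 36.6, 13.8 and 27.9 in endothelial cells, with a log2 difference from the other classes of 4.03 ± 0.40 (edgeR adjusted p = 8.8e-09). Ependymal cells reached a similar range, 814.1 CPM in replicate 1 and 1943.7 in replicate 3. Lgals3bp, a secreted glycoprotein, was higher by 2.48 ± 0.20.

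Ifi27l2a, a small mitochondrial protein, was at 117.1, 49.2 and 273.9 CPM in microglia and at most 52.7 in endothelial cells. The microglial libraries spread widely and replicate 2 lies inside the endothelial range; the log2 difference was 3.31 ± 0.23 (edgeR adjusted p = 1.6e-11). Border macrophage markers, which belong to a cell type with more Ifi27l2a, summed to 234, 122 and 55.2 CPM in the microglia class of replicates 1, 2 and 3, and their part in the Ifi27l2a level was not tested. Also higher were Trim30a (2.80), a ubiquitin ligase, Psmb8 (2.01), the RNA sensor Dhx58 (1.96) and Oasl1 (1.82), which restrains translation of Irf7.

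Effectors and transcription factors were among the 12 genes lower in microglia. Ifit3 was lower by 1.84 ± 0.31, Oasl2 by 2.12 ± 0.35, Cmpk2, a nucleotide kinase of mitochondria, by 2.74 ± 0.46, Irf7 by 1.36 ± 0.35 and Stat2 by 1.40 ± 0.29. Ifitm3 fell by 2.75 ± 0.34 and stood at 110.6, 53.7 and 136.7 CPM against at least 1138.8 in endothelial cells. The Ifit3b difference, -2.36, was 0.13 without replicate 3.

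Pericytes, the mural cells of capillaries, had 3 genes higher and 14 lower, beside 10.4% and 7% of all genes, and a median log2 difference of -1.29 (all genes -0.18). Ifitm1 was at 1210.0, 355.4 and 954.4 CPM in pericytes and at most 9.6 in endothelial cells, a log2 difference of 7.60 ± 0.19 (edgeR adjusted p = 1.9e-18). No other class came near these values. Ifitm2 was at 754.2, 622.0 and 673.3 CPM, above endothelial cells in each library, and was higher by 2.85 ± 0.22. Sp100 was the other higher gene (2.05 ± 0.62), with 22.5, 9.9 and 81.4 CPM. Among the lower genes were Cxcl10 (-3.90), Trim30a (-3.52), Ifit3 (-2.03), Bst2 (-1.53) and Irf9 (-1.61). Ifit1, at 2.47 CPM, and Rsad2, at 1.88, were also called lower; each rested on 1 UMI in a single library. The fibroblast list summed to 585, 2863 and 703 CPM in the pericyte class of replicates 1, 2 and 3, and its part in these values was not tested. With so few pericytes the count of lower genes moved with the settings: it was 4 without replicate 2, 7 without replicate 3, 8 with no block, 6 under the stricter marker rule and 23 with no filter.

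Astrocytes had 1 of 41 genes higher and 23 lower, beside 27% and 22.1% of all genes, with a median log2 difference of -0.98 (all genes 0.07). All 6 transmembrane and mitochondrial genes were lower, and so were both immunoproteasome subunits. Ifitm3 was at 117.8 and 118.4 CPM in replicates 1 and 2 and 580.7 in replicate 3. Replicate 3 was the high library, yet it lies below every endothelial library, and the log2 difference was -1.79 ± 0.32 (edgeR adjusted p = 7.1e-05). Isg15 was at 24.7, 22.8 and 105.2 CPM, lower by 2.13 ± 0.51, and Irf1, a factor strongly induced by type II interferon, was lower by 2.64 ± 0.27.

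Ifit3b was the 1 gene higher in astrocytes, by 1.13 ± 0.36 (edgeR adjusted p = 0.013), a call lost with DESeq2 and with no block. Ifit3 was at 34.2, 29.1 and 99.1 CPM in astrocytes and 10.3, 11.2 and 18.2 in microglia; in replicate 3 it exceeded the endothelial 82.6. Ifit1 was at 22.9, 10.4 and 77.8 CPM, and of its 142 UMIs in replicate 1 a single cell held 76. Ifit2 averaged 8.09 CPM in astrocytes, the lowest of the 5 class means, and was lower by 0.92 ± 0.32 (edgeR adjusted p = 0.022), a call lost with DESeq2, with no block, under the stricter marker rule and without replicate 1 or replicate 2. Without replicate 1, the astrocytes had 15 genes lower and 3 higher, and under the stricter marker rule 3 were higher.

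**Figure D2:**
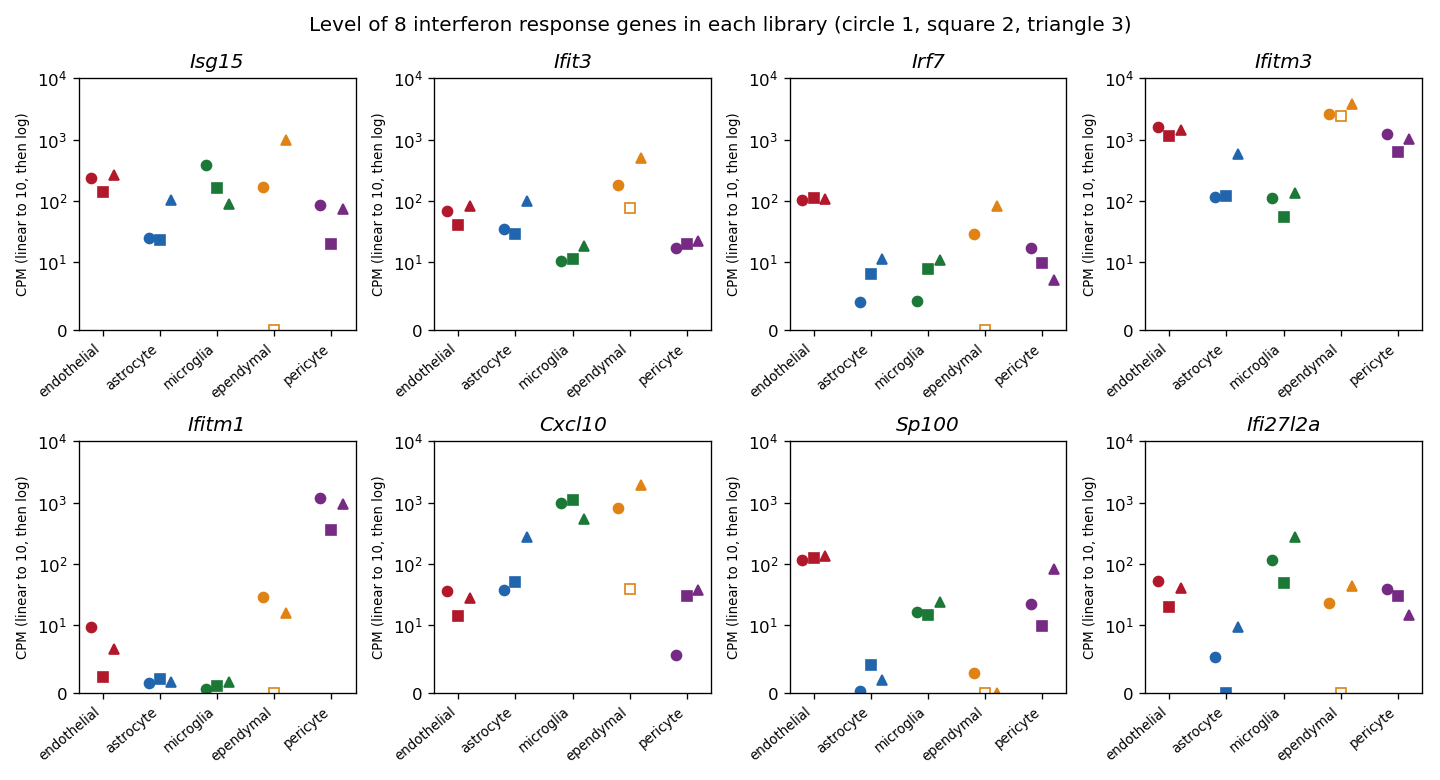
CPM of chosen genes in each class (horizontal axis) and library (circle, square and triangle for replicates 1, 2 and 3), on an axis that is linear up to 10 CPM and logarithmic above; the open square is the ependymal class of replicate 2, whose 8 cells were not in the fit. Irf7 and Sp100 are highest in all 3 endothelial libraries, Ifitm1 in all 3 pericyte libraries, and Cxcl10 in microglia and ependymal cells.

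Set directly against each other, endothelial cells exceeded microglia in 27 of 41 genes and were below them in 4, beside 29.8% and 25.9% of all genes. The median log2 difference was 1.66 over the 41 genes and 0.08 over all. Ifi44 had the highest value over a microglial mean of 0.685 CPM, a few UMIs, and Cmpk2 (3.82 ± 0.32), Ifitm2 (3.69 ± 0.29), Ifitm3 (3.62 ± 0.39) and Irf7 (3.60 ± 0.27) followed. The 4 genes lower in endothelial cells were Cxcl10 (-5.49 ± 0.56), Lgals3bp (-2.20), Ifi27l2a (-2.10) and Psmb8 (-0.59). Isg15 (-0.47 ± 0.49, edgeR adjusted p = 0.44) and Bst2, the tetherin that holds budding viruses at the surface (-0.34 ± 0.28, edgeR adjusted p = 0.33), did not pass.

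The genes that make and read interferon were followed as a second list. This list of 35 pathway genes (among them ligands, receptors, kinases, sensors, interferon regulatory factors and inhibitors) had 28 genes that passed the filter. Microglia had 21 of the 28 (75%) higher, beside 29.4% of all genes, and 0 lower by edgeR, also 0 at an unadjusted p under 0.05. Endothelial cells had 7 higher (25%) and 5 lower (17.9%), near the 31.3% and 17.7% of all genes, and pericytes 1 (3.57%) and 2 (7.14%), beside 10.4% and 7%. Ependymal cells had 5 higher (17.9%, beside 22.4%) and 9 lower (32.1%, beside 17.1%). Astrocytes had 1 higher (3.57%, beside 27%) and 14 lower (50%, beside 22.1%). Endothelial cells led for the type I receptor: Ifnar1 was at 227.8 CPM on average, log2 difference 2.96 ± 0.16, and Ifnar2 was higher by 1.70 ± 0.13. For Ifnar2 the ranges overlapped, at 158.9 to 225.0 CPM in endothelial cells, 127.0 to 182.4 in microglia and 111.0 to 197.4 in pericytes. Within each library the endothelial value was the highest of the classes. Microglia led for the type II receptor, with Ifngr1 (2.57 ± 0.15) and Ifngr2 (3.42 ± 0.15), for the regulatory factors Irf8 (5.95 ± 0.17) and Irf5 (5.69 ± 0.19), and for the DNA sensing pair Tmem173 (5.55 ± 0.22), also called STING, and Mb21d1, also called cGAS (33.8 CPM on average, against 0 UMIs in ependymal cells). Tlr3, the endosomal sensor of double-stranded RNA, was the 1 pathway gene higher in astrocytes (2.75 ± 0.23). Ependymal cells were higher for the inhibitors Socs1 (3.73 ± 0.36) and Socs3 (2.11 ± 0.21) and lower for Ifnar1 (-1.68 ± 0.32) and Ifnar2 (-1.86 ± 0.24).

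Ifnb1, the type I interferon itself, was found mainly in microglia among the 5 classes, and there in few cells. Microglia of replicates 1, 2 and 3 held 817, 27 and 82 Ifnb1 UMIs in 72, 5 and 19 cells, or 8.91% (exact 95% interval 7.04 to 11.1), 5.43% (1.79 to 12.2) and 2.51% (1.52 to 3.90) of the class. The endothelial class, a background for free RNA at a similar depth (medians of 7847.5 UMIs per cell against 8286 in replicate 1), had 14, 0 and 2 such cells, at most 0.621%, astrocytes 2, 0 and 2, and ependymal cells and pericytes 0. The 5 highest microglia of each library held 45.4%, 100% and 74.4% of its Ifnb1 UMIs, and the highest single cells had 105, 14 and 38. Replicate 1 had both the most positive cells and the highest counts.

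Microglia with at least 2000 UMIs were each thinned at random to 2000 UMIs. The cells that kept an Ifnb1 UMI (42, 4 and 9), here the Ifnb1 cells, were set beside the others. CPM were taken from all UMIs, and at full depth some of the others, at least in replicate 3, also had Ifnb1. Isg15 was at 2173 CPM in the Ifnb1 cells against 264 in the other microglia of replicate 1, 514 against 149 in replicate 2 and 410 against 87.1 in replicate 3. An Isg15 UMI was in 83.3% against 35.8%, 100% against 25.3% and 44.4% against 32.3% of the cells. The shares of replicate 3 thus lie close together, and its 9 Ifnb1 cells held 26 Isg15 UMIs. Cxcl10 was at 5618 against 671, 6923 against 904 and 2114 against 532. In replicate 2 the 202 Cxcl10 UMIs of the Ifnb1 cells came from 1 of the 4 cells, or 25% of them, while 48.2% of the other microglia had a Cxcl10 UMI. In replicates 1 and 3 the Ifnb1 cells had the larger share of cells with Cxcl10, 90.5% against 43.8% and 77.8% against 35.8%. Ifi27l2a was at 57.4 against 122 CPM in replicate 1 and had no UMI in the Ifnb1 cells of replicates 2 and 3, against 49.0 and 280 CPM in the others. Ifitm3 had no common direction, at 95.7 against 111, 171 against 49.0 and 78.9 against 137 CPM, and Irf7 had 1, 0 and 0 UMIs in the Ifnb1 cells, too few to compare. These are descriptions of few cells, whose median depth was 9980 against 8444 UMIs in replicate 1, with no test.

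Whether few cells carry most of this RNA was asked with 10 of the genes: Ifit1, Ifit2, Ifit3, Ifit3b, Isg15, Rsad2, Usp18, Ifi44, Oasl1 and Cmpk2. Every cell was thinned at random to 2000 UMIs, so that deep cells had no advantage, and shallower cells were left out (70, 48 and 87 endothelial cells, 236, 20 and 104 astrocytes, 51, 5 and 73 microglia). At that depth 57.7%, 41.6% and 61.2% of endothelial cells had at least 1 of the 10 genes, against 14.2%, 12% and 24.8% of astrocytes and 25.5%, 19.5% and 17.6% of microglia. No class is known to lack these genes, so the lowest share in each library, in astrocytes or microglia, is the nearest thing to a background. At least 2 genes were found in 25% (exact 95% interval 23.2 to 26.8), 12.8% (9.51 to 16.8) and 26.4% (24.2 to 28.6) of endothelial cells, a mean of 21.4% ± 7.44 (SD, n = 3). Astrocytes had 2.46%, 2.00% and 9.54%, and microglia 4.62%, 4.60% and 2.20%. Each endothelial library lies above every astrocyte and microglia library, and replicate 3 is the high library in astrocytes. Not thinned, the mean shares were 58.7%, 13.4% and 13% in endothelial cells, astrocytes and microglia. The intervals cover counting error only.

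Ependymal cells differed most between libraries. With the wider rule 15% (29 of 193 cells) had at least 2 of the genes in replicate 1, 5% (1 of 20) in replicate 2 and 52.3% (194 of 371) in replicate 3. Under the main rule the shares were 10% of 50 cells in replicate 1 and 52% of 102 cells in replicate 3. At least 1 of the 10 genes was found in 38.3% of cells in replicate 1 and 71.7% in replicate 3 by the wider rule, so replicate 3 lies far above the other libraries by either count. Pericytes had 2, 1 and 0 such cells; 0 of 34 allows a share of up to 10.3% (exact 95% interval).

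**Figure D3:**
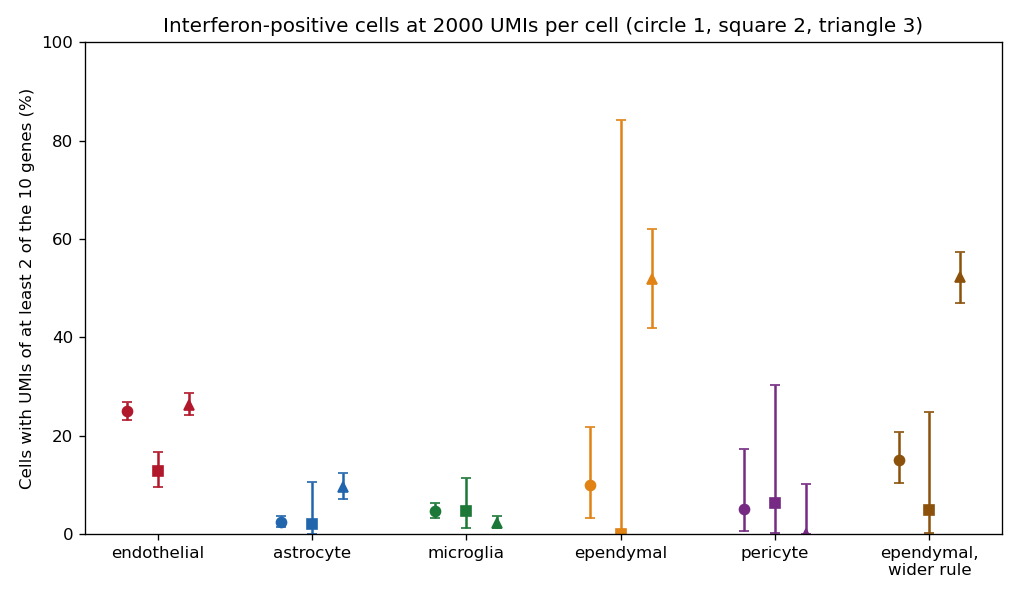
Percentage of cells, thinned to 2000 UMIs, with at least 2 of the 10 genes in each class and library; bars are exact 95% binomial intervals. Endothelial cells lie between 12.8% and 26.4%, astrocytes and microglia under 10%, and ependymal cells of replicate 3 near 52%.

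The top 5% of cells, ranked by the summed UMIs of the 10 genes, held 27.9%, 30.3% and 27.8% of those UMIs in endothelial cells. In astrocytes they held 62.3%, 81.3% and 60.2%, and in microglia 63.4%, 56.8% and 58.7%. The same share in ependymal cells was 53.1% in replicate 1 and 26.4% in replicate 3. Such a share rises by counting alone as the mean falls, and the means were 1.34, 0.744 and 1.43 UMIs per endothelial cell against 0.242, 0.320 and 0.723 per astrocyte and 0.830, 0.506 and 0.302 per microglial cell. The ratio of variance to mean, which is 1 for random counting at any mean, was 2.83, 2.01 and 2.88 in endothelial cells, 6.39, 7.71 and 6.82 in astrocytes and 9.95, 3.72 and 5.38 in microglia. Both measures were higher in astrocytes and microglia than in endothelial cells in each library, but single cells weigh on them. In replicates 1, 2 and 3 the highest astrocyte held 30 of 207, 11 of 16 and 23 of 394 UMIs. The highest microglial cell held 34 of 628, 9 of 44 and 27 of 206. The highest endothelial cell held 22 of 2917, 10 of 261 and 22 of 2193. The measures without these cells were not computed. Pericytes, at 1.25 and 0.848 in replicates 1 and 3, were near random counting with 39 and 34 cells. For comparison, MHC class I genes, which interferon also induces, gave the top 5% of cells 10.7%, 11.8% and 11% of their UMIs in endothelial cells and 11.5%, 12.6% and 11.6% in microglia, at far higher means. In astrocytes, where the MHC class I mean was 1.32, 1.52 and 2.09 UMIs per cell, the top 5% held 26%, 21.1% and 29.6%, with a ratio of variance to mean of 2.34, 1.54 and 4.32.

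**Figure D4:**
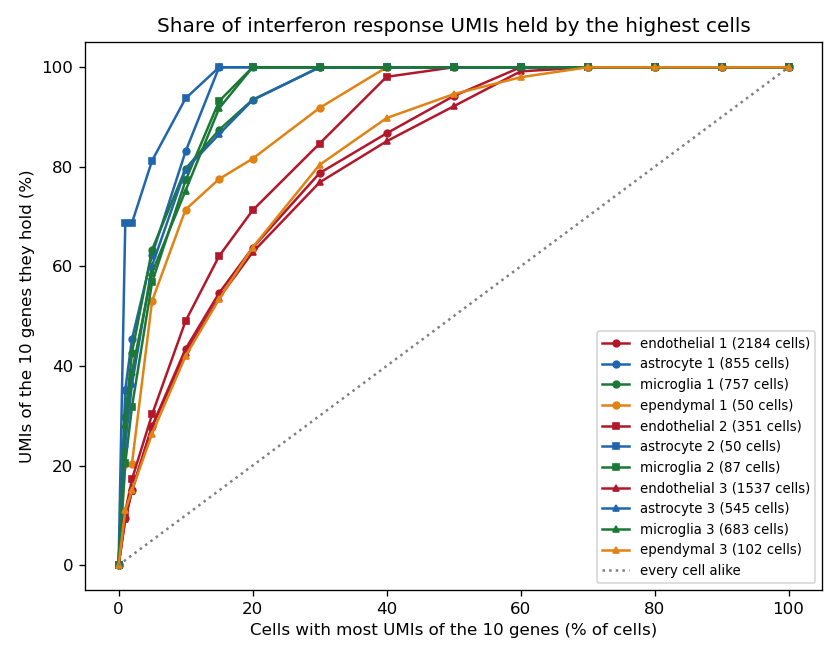
Cumulative percentage of the UMIs of the 10 genes (vertical axis) held by cells ranked from highest to lowest (horizontal axis, percentage of cells of the class, thinned to 2000 UMIs), 1 line per library. The astrocyte and microglia lines climb early, 56.8% or more by the top 5% of cells, and the endothelial lines more slowly, 30.3% or less.

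The 10 genes themselves were mixed differently in microglia, endothelial cells and astrocytes. Isg15 gave 80.6%, 73.3% and 60.8% of the 10 genes' UMIs in microglia, 35.9%, 32.5% and 38.8% in endothelial cells and 15.3%, 18.0% and 23.4% in astrocytes. Ifit3 gave 21.2%, 23% and 22% in astrocytes and 2.2%, 5.1% and 12.3% in microglia. These 3 classes do not overlap in either share, apart from endothelial Ifit3 (10.7%, 9.3% and 12.2%), which lies within the microglial range. Ependymal cells and pericytes do overlap with them: Isg15 gave 26.6% and 41.3% in ependymal cells of replicates 1 and 3 and 53.6%, 18.2% and 58.8% in pericytes, whose 10 genes summed to at most 28 UMIs, and Ifit3 gave 29% and 21% in ependymal cells. Isg15 was found more often in cells that had Ifit3 in several classes. In replicate 1, 45.3% of endothelial cells with an Ifit3 UMI also had Isg15 (exact 95% interval 39.0 to 51.8), against 25.9% (23.9 to 27.9) of those without. The endothelial shares were 37.5% and 16.5% in replicate 2, where the intervals overlap, and 58.1% and 31.4% in replicate 3. In astrocytes of replicate 1 the shares were 13.3% (5.05 to 26.8) and 2.10% (1.23 to 3.34), and in replicate 3 30.8% and 6.09%. In microglia they were 50% and 19.9% in replicate 1, with overlapping intervals, and 35.3% and 11.1% in replicate 3. The ependymal intervals overlap in replicate 1 (25% and 11.9%) and not in replicate 3 (68.9% and 26.3%). For Ifit3b the shares in astrocytes of replicate 1 were 4.44% with Ifit3 (2 of 45 cells, 0.543 to 15.1) and 3.95% without (2.72 to 5.53). That is too few cells to tell whether this pair differs. In endothelial cells of replicate 1 Ifit3b was in 15.4% (11.1 to 20.5) of cells with Ifit3 and 3.82% (3.01 to 4.77) of those without.

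The cells with at least 2 of the 10 genes after thinning, called interferon-positive here, were next compared with negative cells, library by library. Negative cells had none of the 10 genes after thinning, and UMIs were then summed at full depth. Not thinned, 1927 of 2254, 291 of 399 and 1360 of 1624 endothelial cells of replicates 1, 2 and 3 had any of the genes. Many negative endothelial cells therefore also carried them at full depth. The 10 genes were left out, and the 32 other measured response genes, which did not select the cells, were tested in the same way with library as a block. In endothelial cells (545, 45 and 405 positive against 923, 205 and 596 negative), 31 of the 32 passed the filter and 22 were higher and 0 lower in positive cells, beside 0.412% and 0.262% of 10669 genes tested. Of the same 31, 26 were higher and 0 lower at an unadjusted p under 0.05, and DESeq2 called 14 higher and 0 lower. The median log2 difference was 0.67 over the 31 genes.

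Rtp4, a chaperone for receptor transport, stood at 133, 110 and 129 CPM in positive endothelial cells and 45.3, 46.5 and 56.8 in negative ones, a log2 difference of 1.34 ± 0.10 (edgeR adjusted p = 9e-07). Positive exceeded negative in all 3 libraries with no overlap. Zbp1, a sensor of Z-form nucleic acid (1.47 ± 0.22), Oas1a (1.28 ± 0.18), Oasl2 (1.21 ± 0.11), Xaf1 (0.94 ± 0.10) and Irf7 (0.79 ± 0.12) were also higher. Ifitm3 was higher by only 0.41 ± 0.07 over a negative level of 1381, 1099 and 1305 CPM. Ifitm2, Ifi27, Irf1, Trim25 and Ifitm1 did not pass, with log2 differences from -0.44 to 0.21. The call count was 10 without replicate 1, 12 without replicate 3 and 0 without the library block. Outside the list, the 8 highest genes were Phf11d (1.18), Eif2ak2 (0.98), the kinase PKR, the immunity-related GTPases Iigp1 (1.11), Irgm1 (0.97) and Igtp (0.91), Slfn2 (0.93), Herc6 (0.84) and Cd274; Cd274, which encodes PD-L1, was higher by 0.85 ± 0.15. The 4 lowest were Lyz2 (-2.71), Lgals3 (-2.45), Spp1 (-1.86) and Olig1 (-1.72). Microglial markers summed to 108 against 168, 202 against 149 and 220 against 426 CPM in positive and negative cells, and their part was not tested.

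Astrocytes showed larger differences. Only replicates 1 and 3 had enough positive cells (21 and 52, against 734 and 410), and 23 of 26 genes were higher and 0 lower, beside 1.75% and 0.503% of 10945 genes; 26 were higher and 0 lower at an unadjusted p under 0.05, and DESeq2 called 16 higher and 0 lower. The median log2 difference was 2.77. Oasl2, an OAS-like protein with antiviral activity, was at 211 against 2.75 CPM in replicate 1 and 248 against 13.7 in replicate 3 (4.77 ± 0.40). Cxcl10 was at 450 against 25.5 and 1346 against 96.6 CPM (3.85 ± 0.17, edgeR adjusted p = 4e-05). Ifitm3 was at 591 against 83.3 and 2075 against 304 (2.71 ± 0.14). Positive cells of replicate 1 therefore stood below those of replicate 3 for Cxcl10 and Ifitm3. Dhx58, Trim25 and Lgals3bp did not pass.

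Among other genes, C3, the central complement protein, was at 613 CPM in positive astrocytes against 6.48 in negative ones in replicate 1 and 1502 against 144 in replicate 3 (4.46 ± 0.57, edgeR adjusted p = 0.0062). Igfbp3 (10.8 and 53.1 CPM against 0 and 0.248), Wisp2 (5.68), AW112010 (4.77), Has2 (4.37) and Iigp1 (4.31) were also among the 8 highest, with Ccdc113 and Spag17, which belong to motile cilia. Wisp2 was at 10.8 and 75.6 CPM against 1.18 and 0.248. The 10.8 CPM of Igfbp3 and Wisp2 in replicate 1 is a few UMIs, so both rest mainly on replicate 3. Ependymal check markers were 201 against 98.4 CPM and 462 against 146, border macrophage markers 547 against 56.7 and 1.33 against 7.95, and median UMIs per cell 8203 against 6015.5 and 12265 against 9179.5. Their part in these differences was not tested. The lowest genes were Myoc (0 and 1.33 CPM against 129 and 69.6), Disp3 and the hemoglobins Hba-a1 (-3.26) and Hbb-bs (-3.15), and erythrocyte markers summed to 146 against 427 and 211 against 2539 CPM. Without the block 5 of the 26 genes were called higher.

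In ependymal cells, with the wider rule and replicates 1 and 3, 19 of 27 genes were higher in positive cells and 0 lower, beside 0.592% and 0.0817% of 9794 genes; at an unadjusted p under 0.05, 24 were higher and 0 lower, and DESeq2 was not run on this fit. Irf7 (3.23 ± 0.29), Oasl2 (2.87 ± 0.19) and Bst2 (1.99 ± 0.16) differed strongly and Ifitm3 (0.79 ± 0.14) less. Ifitm3 was already at 1981 and 2242 CPM in negative ependymal cells, against 3518 and 3755 in positive ones. Parp10 and Parp9, ADP-ribosyltransferases, Apol9a, Apol9b, Rnf213, Gbp6, Iigp1 and Ddx58 (RIG-I) were the 8 highest outside the list, and Vtn (-3.34), a gene of the pericyte rule, Gdf15 (-1.50), Rasl11a (-1.35) and Wisp2 (-1.12) the 4 lowest. Pericyte check markers summed to 10.3 CPM in positive against 21.5 in negative cells of replicate 1 and 4.88 against 62.5 in replicate 3, and smooth muscle markers to 212 against 487 and 420 against 578. Both lists were lower in positive cells of both libraries, and their part was not tested. Wisp2 was thus lower in positive ependymal cells and higher in positive astrocytes, there mainly by the UMIs of replicate 3.

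In microglia (35 and 15 positive against 564 and 563 negative cells, replicates 1 and 3), 11 of 30 genes were higher and 0 lower, beside 0.231% and 0.0421% of 9510 genes. At an unadjusted p under 0.05, 20 were higher and 0 lower, and DESeq2 called 6 higher and 0 lower. The positive cells of the 2 libraries differed in Ifnb1. In replicate 1, Ifnb1 was at 1527 CPM in positive against 18.4 in negative microglia, and 19 of the 35 positive cells had an Ifnb1 UMI. In replicate 3 none of the 15 positive cells had one, which allows a share of up to 21.8% of cells with a UMI (exact 95% interval).

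Several response genes also differed between replicates 1 and 3, on few UMIs. The positive cells held 5 and 24 UMIs of Oasl2, 4 and 14 of Irf7 and 0 and 24 of Zbp1. Rtp4 had UMIs in both, 18 and 15. Replicate 2, not in the fit, followed neither: its 4 positive cells held 14 Ifnb1, 205 Cxcl10, 5 Irf7, 4 Zbp1 and 0 Oasl2 UMIs. Oasl2 was at 14.5 against 3.80 CPM in replicate 1 and 203 against 5.35 in replicate 3, Irf7 at 11.6 against 3.59 and 118 against 7.07, and Xaf1 at 11.6 against 13.9 and 194 against 13. Zbp1 had no UMI in the positive cells of replicate 1 (negative 2.32) and was at 203 against 4.58 in replicate 3. Cxcl10 went the other way, at 4992 against 632 CPM in replicate 1 and 751 against 479 in replicate 3. A single log2 difference, such as 3.95 ± 0.59 for Oasl2 or 3.13 ± 0.67 for Irf7 (edgeR adjusted p = 0.0019), therefore averages unlike libraries, and with no block 0 genes were called. Astrocyte check markers summed to 608 against 253 CPM in replicate 3, and their part was not tested.

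**Figure D5:**
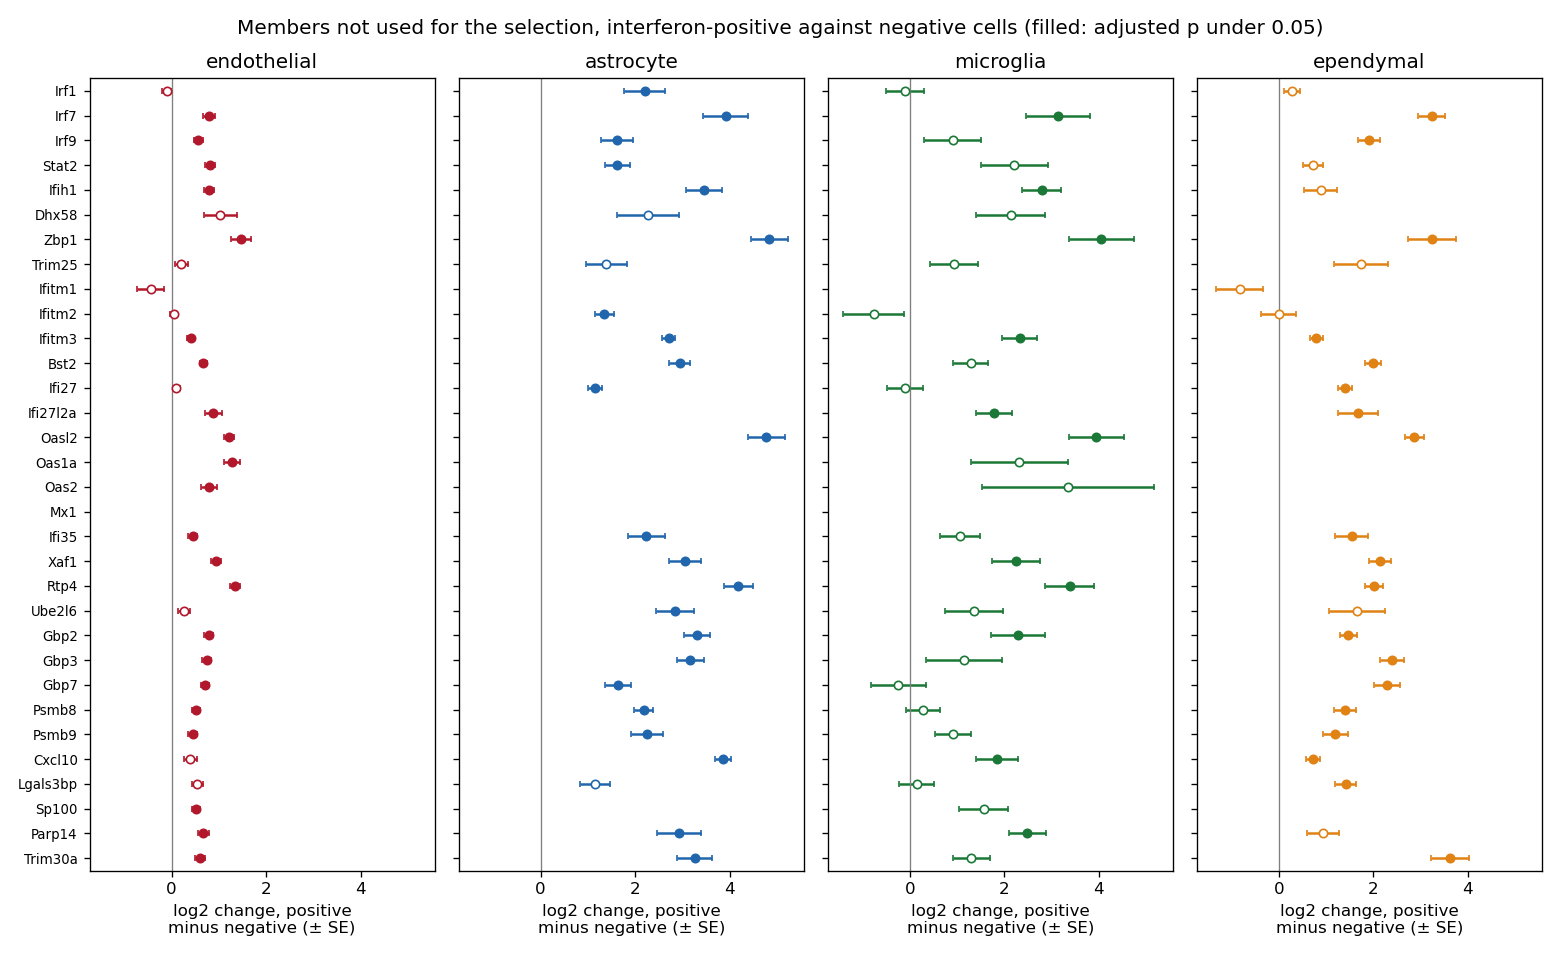
Log2 difference between interferon-positive and negative cells for each tested response gene that did not select the cells (rows), by class, with SE bars; filled points passed the edgeR threshold. Points lie mostly right of 0 in each class, farthest in astrocytes (median 2.77) and nearest in endothelial cells (median 0.67). The medians were not tested against each other.

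Whether the positive-negative difference itself differs between endothelial cells and microglia was tested as an interaction, where a lower value is a smaller difference in endothelial cells. edgeR called 0 of the 32 genes, beside 0.0163% higher and 0.00817% lower of 12233 genes, and at an unadjusted p under 0.05 there were 3 higher and 11 lower. Shares of all genes for the unadjusted count and for the other settings below are not given, so no direction is read from those counts. The median of all genes in the interaction was 0.38 with TMM and 0.091 with RLE. The smallest adjusted p was 0.089 for Ifih1, the RNA sensor MDA5 (-1.87 ± 0.34). DESeq2 called 4 lower, and edgeR 8 lower with no filter, 1 with RLE scaling and 1 with a stricter cell filter. Across the 4 classes tested, neither Ifnar1 nor Ifnar2 passed between positive and negative cells. Ddx58 was higher in positive astrocytes (2.26 ± 0.32) and ependymal cells (1.94 ± 0.36).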

How the data were processed

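Raw UMI counts per gene and cell were deposited by the authors as 1 table per library, made with Cell Ranger (version not given in the sources used here) on mm10, per the submitters' processing notes. The 2412 gene symbols whose hyphens had been turned to dots were restored from the annotation; 30532 of 31053 symbols were in it. Cells with at least 500 UMIs, 300 genes and at most 20% mitochondrial UMIs were kept. UMIs were summed per library and class (at least 10 cells) and tested with edgeR 4.0.16 (quasi-likelihood, TMM, filterByExpr, library block, limma 3.58.1, R 4.3.3); the 15 class markers were not tested between classes, and the 10 selection genes not between positive and negative cells. Class sums ranged from 101294 to 21142650 UMIs. Thinning used a seed of 1, numpy 2.4.6 and scipy 1.17.1. DESeq2 1.42.0, RLE scaling, no filter, no block, left-out libraries, a filter of 1000 UMIs and 10% mitochondrial UMIs, cells with at most 1 marker of another class and thinning to 1000 UMIs were alternatives. The fit was tested on simulated data. The genes and lists were chosen with earlier results of these data known. Every listed gene and the pathway genes could be named; of other genes, the 8 highest and 4 lowest called between positive and negative cells, if all libraries had the same sign and either side reached 20 CPM. Positive and negative cells, and classes, come from the same libraries, which is what the block pairs. The ependymal positive-negative fit and the wider rule were added after seeing the data. The values of 1 pathway gene are not reported here.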

Additional observations from a re-analysis of the deposited data

How the results depend on the processing

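Between alternatives, the class counts of endothelial cells higher, microglia both ways and endothelial cells against microglia stayed within 1.5 times the reported count. Genes lower in endothelial cells were 1 with no filter on low counts, with no replicate block and with at most 1 marker of another class (1 to 3 leaving out 1 library). Genes higher in astrocytes were 0 with DESeq2 and no replicate block and 3 under the marker rule (1 to 3), and those lower 15 to 25. Ependymal cells had 12 higher under the marker rule (11 to 22) and 3 lower with RLE, DESeq2 and the marker rule (3 to 5). Pericytes had 23 lower with no filter, 8 with no replicate block and 6 under the marker rule (4 to 21). The number of genes highest by mean CPM was 11 to 20 in ependymal cells leaving out 1 library, 13 to 19 in endothelial cells, 5 to 8 in microglia, 2 to 3 in pericytes and 0 to 1 in astrocytes, where it was also 0 with the wider ependymal rule. For positive against negative cells, the count higher in endothelial cells was 14 with DESeq2, 0 with no replicate block and 10 to 24 leaving out 1 library; in microglia 6 with DESeq2 and 0 with no replicate block; in astrocytes 5 with no replicate block. The block changed no other count by over 1.5 times. The interaction gave 1 gene lower with RLE, 8 with no filter, 4 with DESeq2 and 1 with the stricter cell filter. Its share of higher calls over all genes was 66.7% of 3 calls with TMM and 0% with RLE. The share of cells with at least 2 of the 10 genes was 10.7% in endothelial cells and 2.11% in microglia at 1000 UMIs, and 58.7%, 13.4%, 13% and 7.59% in endothelial cells, astrocytes, microglia and pericytes when not thinned. Leaving out 1 library, Ifit3b in microglia ranged from -2.87 to 0.13, and in ependymal cells Gbp3 from -0.60 to 1.88 and Ifi44 from -0.31 to 5.34, each turning sign without replicate 3. The sign also turned for Stat2 (-2.49) and Rsad2 (-1.55) in ependymal cells under the marker rule. Of the values for single genes, 320 kept direction and call with DESeq2, 37 lost the call and 8 gained it; with no block 293 kept it and 72 lost it. The cause was not tested. Leaving out a library could not be fitted for positive against negative astrocytes, microglia or ependymal cells, which have 2 libraries, and thinning to 1000 UMIs gave no fit for astrocytes and microglia. Depth limits pericytes and ependymal cells of replicate 2 most.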

Other observations

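Cells outside the 5 classes also held RNA of these genes. Border macrophages, here cells with all 3 of Mrc1, Pf4 and Cd163 and no class rule met (34, 6 and 28 cells in replicates 1, 2 and 3), had Bst2 at 696, 900 and 837 CPM and Ifi27l2a at 671, 950 and 641 CPM. Ifi27l2a was above every microglia library, which reached at most 273.9 CPM. Ifitm3 was at 1049, 1075 and 1424 CPM in them, against at most 136.7 in microglia. Mx1, which missed the filter in the 5 classes, was at 13, 75 and 20 CPM there.

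Oligodendrocyte precursors (cells with Pdgfra, Cspg4 and C1ql1: 124, 10 and 79) had Ifi27 at 593, 479 and 607 CPM and Isg15 at 10, 0 and 6 CPM. Smooth muscle cells (Acta2, Tagln and Myh11: 56, 3 and 18) had Ifitm3 at 695, 551 and 420 CPM and Ifitm1 at 35, 401 and 84, so their Ifitm1 lay below that of pericytes in replicates 1 and 3. In cells that met no class rule the 10 selection genes summed to 441, 187 and 582 CPM, lowest in replicate 2, which was also the lowest endothelial library for Isg15 and Ifit3. These cells have no test.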
